A study of Mus musculus with 9 samples.

Results

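Expression of 10 genes of the hypoxia response was compared in CD11b+ spleen cells of C57BL/6 mice: Vegfa and its relative Vegfb, the hypoxia-inducible transcription factor gene Hif1a, the oxygen-sensing hydroxylase genes Egln1 and Egln3, and the hypoxia-responsive genes Adm, Bnip3, Ddit4, P4ha1 and Thbs1. They were chosen by name among the 18193 genes that the probe sets of the array name singly, and all 10 passed the filter on dim genes, as did 13078 genes in all. Every probe set of Vegfa and of Hif1a is described, and for the other genes the probe set with the highest mean over all arrays. The comparison used 9 Affymetrix arrays of 2 conditions: HighThreat, 6 animals with repeated social threat and 1 array each, and LowThreat, 6 animals without threat whose RNA was combined by 2 into the 3 control pools 1-2, 3-4 and 5-6. All animals had the same strain, and the labels name no transgene, drug or time point. In both conditions the cells came from the adherent fraction of the spleen by magnetic selection for CD11b, the integrin chain encoded by Itgam, so the preparation can hold monocytes, macrophages, granulocytes, natural killer cells and some dendritic cells. The array medians lay between 3.19 and 3.22 on the log2 scale, and no label gives a batch that could be tested.

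Cells sense oxygen through the alpha subunits of the hypoxia-inducible factors, of which Hif1a is the most widely expressed. When oxygen is present, prolyl hydroxylases of the Egln family mark the subunit, the Vhl ubiquitin ligase recognises the mark, and the subunit is destroyed. When oxygen falls, the subunit escapes this mark, joins its partner Arnt and switches on genes for vessel growth, glucose use, collagen modification and survival. In myeloid cells bacterial products and cytokines also raise it, and many of its target genes answer to further signals as well. Arrays measure RNA, so the stability of the Hif1a protein was not seen here.

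The hypoxia-inducible factors bind DNA at a core of 5 letters, ACGTG or GCGTG. Promoter sequence is shown for the genes on which the results turn most: Vegfa and Adm, which fell most among the genes with a promoter entry in RefSeq (GRCm38.p6), and Bnip3, whose difference did not pass the test. Each window is the 250 bases before the annotated start, on the gene's own strand, and capitals mark a core match on either strand. The Vegfa window lies at chr17:46032378-46032627 (minus strand), that of Adm at chr7:110627407-110627656 (plus strand) and that of Bnip3 at chr7:138909507-138909756 (minus strand).
Vegfa: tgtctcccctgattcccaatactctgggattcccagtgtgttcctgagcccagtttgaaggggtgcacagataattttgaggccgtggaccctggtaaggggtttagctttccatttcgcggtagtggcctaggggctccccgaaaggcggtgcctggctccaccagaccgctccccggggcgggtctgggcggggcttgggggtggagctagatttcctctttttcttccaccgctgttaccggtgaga
Adm: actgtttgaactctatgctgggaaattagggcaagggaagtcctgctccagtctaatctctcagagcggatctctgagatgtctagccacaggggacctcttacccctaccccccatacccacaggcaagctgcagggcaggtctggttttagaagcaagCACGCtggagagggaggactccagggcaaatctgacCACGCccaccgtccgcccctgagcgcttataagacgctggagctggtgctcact
Bnip3: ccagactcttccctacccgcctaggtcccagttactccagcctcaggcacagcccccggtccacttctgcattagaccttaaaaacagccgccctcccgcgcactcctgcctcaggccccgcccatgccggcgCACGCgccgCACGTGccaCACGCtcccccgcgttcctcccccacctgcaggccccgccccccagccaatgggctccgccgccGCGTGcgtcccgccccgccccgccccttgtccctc
The Vegfa window held no match, that of Adm 2 (both GCGTG on the opposite strand, the nearer one at -54 to -50 from the start) and that of Bnip3 5, where CACGTG was counted on each strand. Of the 10 genes, 9 had an entry, and Thbs1 had none. Vegfa had a second entry at chr17:46025164-46025413, with 2 matches. On the minus strand this window lies downstream of the first one, past the start annotated there. Its matches are thus not upstream of that start. In all, 9 of 10 entries, the second Vegfa window among them, held ACGTG or GCGTG, against 38.6% of 32851 mouse promoter windows of this length. The entries were richer in G and C (50.8% to 86.0%) than the median promoter (52.4%), all but that of Egln3. A match is a description of the letters, not evidence of binding. Sequence further upstream was not searched, so a window without a match does not show that a gene lacks such a site. The palindromic cAMP response element TGACGTCA, searched in the same windows, was in none of the 10 entries and in 1.55% of all promoter windows.

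Vegfa was clearly lower in threat animals, and so were Thbs1 and Adm, while Hif1a was slightly higher. Fitted with limma across all 13078 genes, 6 of the 10 genes passed an adjusted p of 0.05: 5 fell (Vegfa, Thbs1, Adm, Egln1 and Vegfb) and 1 rose (Hif1a). Much of the transcriptome differed between the groups: 45.8% of all genes passed, 23.8% higher and 22.0% lower, so a share of 6 in 10 is not far from the background. Threat and control values did not overlap in 6 of the 10 genes, against 41.8% of all genes. The size of the falls stood further from the background than their number. A fall of at least 1.5-fold was found in 3 of 10, against 5.91% of all genes, and the fall of Vegfa ranked 102 among 13078. The 10 genes were chosen with earlier results of these data known, so these shares describe them and do not test them as a set. The median difference of the 10 genes was -0.12 on the log2 scale, that of all genes 0.029. Egln3, Bnip3, Ddit4 and P4ha1 did not pass. Because cells were pooled on each array, fewer cells of a type and less RNA per cell cannot be told apart in any of these values.

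**Figure D1:**
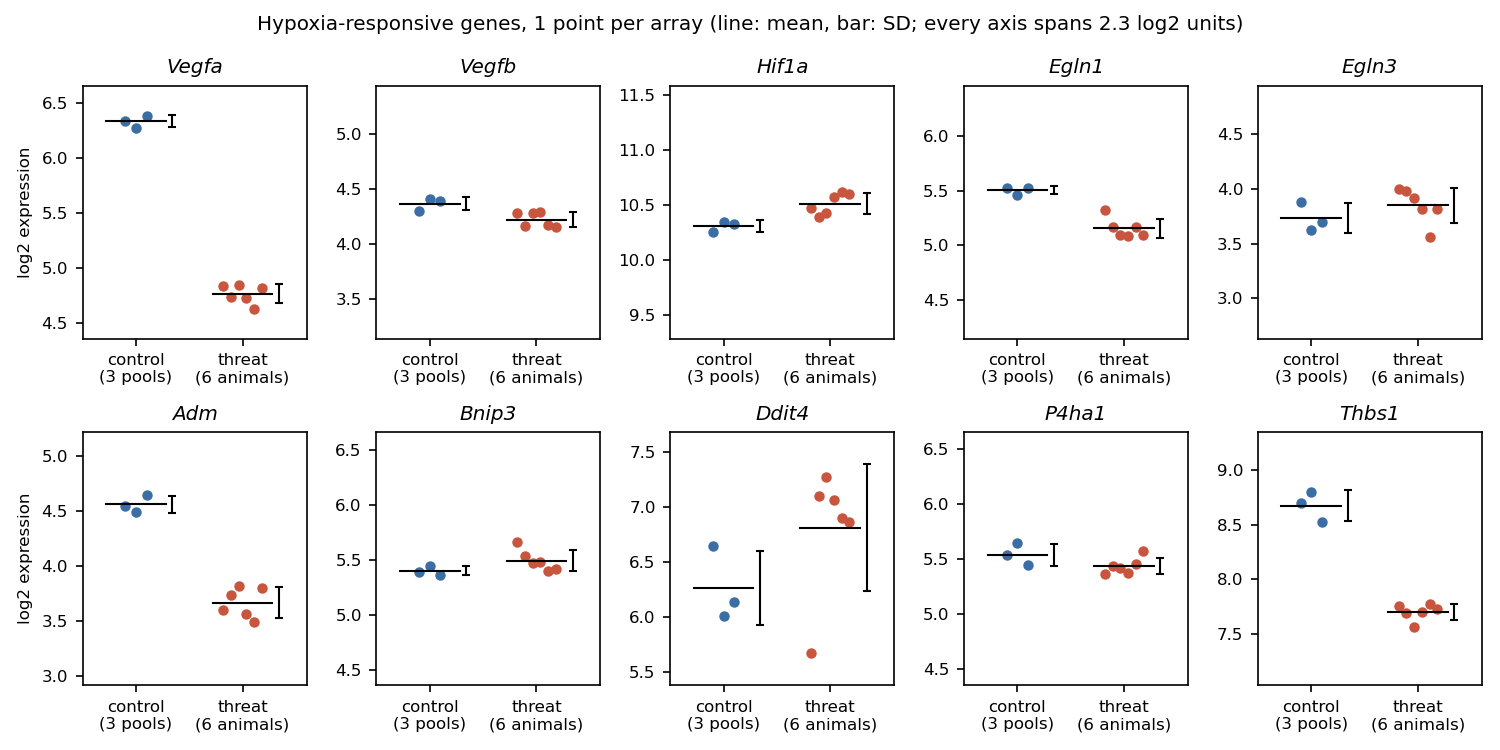
Log2 expression of the 10 genes in each array, for 3 control pools (blue) and 6 threat animals (red), with the mean as a line and the SD as a bar; axes start at different levels but have the same length. Vegfa, Thbs1 and Adm lie apart by 0.89 or more on the log2 scale, and threat animal 1 lies far below the other threat animals in Ddit4.

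Vegfa encodes the main growth factor of blood vessels, which macrophages release in wounds and in inflamed or poorly oxygenated tissue. Its brighter probe set (1451959_a_at) read 6.34, 6.28 and 6.39 in control pools 1-2, 3-4 and 5-6, and between 4.62 and 4.85 in threat animals with a median of 4.78. Every threat animal lay more than 1 log2 unit below every control pool. Vegfa fell by 1.57 (SE 0.058, adjusted p = 9.3e-10), which is 2.97-fold, from 6.335 ± 0.054 (SD, n = 3) to 4.77 ± 0.086 (SD, n = 6). The other probe set (1420909_at) read 6.30, 6.02 and 6.39 in the pools and from 3.89 to 4.36 in threat animals, with a median of 4.24. It fell by 2.05 (SE 0.11, adjusted p = 6.3e-08 over all 22757 probe sets, of which 42.8% passed), a 4.13-fold difference, so both probe sets of Vegfa fell, and the dimmer one gave the larger fall.

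Vegfb, a ligand of the receptor Flt1 that has little part in vessel sprouting, barely moved. It read 4.30, 4.41 and 4.39 in the pools and 4.15 to 4.29 in threat animals, with a median of 4.23. The groups did not overlap, but the gap between the lowest pool and the highest animal was small. Vegfb fell by 0.14 (SE 0.053, adjusted p = 0.0413). This call is weak: of 22 alternatives, 10 lost it, with adjusted p from 0.0271 to 0.139 over all of them, among them leaving out control pool 3-4 (0.139), control pool 5-6 (0.11) or threat animal 2 (0.0726), 5 (0.073) or 6 (0.0737).

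Adm encodes adrenomedullin, a peptide that widens vessels and tightens their walls and that macrophages secrete. Its values were 4.55, 4.49 and 4.64 in the pools and 3.49 to 3.82 in threat animals, with a median of 3.67. All 6 animals lay below all 3 pools. Adm fell by 0.89 (SE 0.078, adjusted p = 1.2e-06), a 1.86-fold difference, and its other probe set fell by 1.14 (SE 0.088, adjusted p = 1.2e-06 over all probe sets). Adm was dim: that other probe set had a threat mean of 3.23, close to the array medians of 3.19 to 3.22. Without a detection call, the size of its fall is uncertain.

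Thbs1 encodes thrombospondin, a matrix protein that restrains vessel growth and activates transforming growth factor beta, and which platelets and macrophages store or secrete. It thus opposes Vegfa in its best known role, but both fell. Thbs1 read 8.69, 8.80 and 8.53 in the pools, and 7.57 to 7.77 in threat animals with a median of 7.71. Again no threat animal reached the lowest pool. Thbs1 fell by 0.97 (SE 0.066, adjusted p = 1.2e-07), a 1.96-fold difference, and by nearly the same in its other probe set, which fell by 1.00 (-0.996, SE 0.10, adjusted p = 1.2e-05 over all probe sets).

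Hif1a was the only one of the 10 genes that rose. Its brightest probe set (1427418_a_at) read 10.25, 10.35 and 10.33 in the pools and from 10.39 to 10.62 in threat animals, with a median of 10.52. All 6 animals were above all 3 pools, by a narrow margin. The difference was 0.20 (SE 0.061, adjusted p = 0.0156), or 1.15-fold, and the call was lost without control pool 1-2 (0.17, adjusted p = 0.0732). Hif1a has 3 further probe sets, and all had a higher mean in threat animals. One (1416035_at) went from 7.86, 7.90 and 7.74 in the pools to between 8.05 and 8.27, a rise of 0.32 (SE 0.058, adjusted p = 8.5e-04 over all probe sets). The remaining probe sets missed the threshold: 1448183_a_at differed by 0.24 (SE 0.099, adjusted p = 0.0736), with threat animal 3 below all pools at 8.78, and the dim 1431981_at by 0.29 (SE 0.14, adjusted p = 0.115).

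Egln1 encodes the hydroxylase that sets the normal turnover of Hif1a, and Egln3 encodes a relative that hypoxia itself induces. Egln1 read 5.52, 5.46 and 5.52 in the pools and 5.09 to 5.32 in threat animals, with a median of 5.13. Threat animal 1 was the highest of the animals at 5.32, still below the lowest pool. Egln1 fell by 0.35 (SE 0.058, adjusted p = 3.1e-04), but its other, dimmer probe set differed by 0.017 (SE 0.071, adjusted p = 0.872 over all probe sets), and the mean of both probe sets fell by 0.16 (adjusted p = 0.0202). Egln3 read 3.88, 3.62 and 3.69 in the pools and 3.56 to 4.00 in threat animals, with a median of 3.87. The groups overlapped, and the difference of 0.12 (SE 0.092, adjusted p = 0.329) did not pass, nor did that of its other probe set (-0.036, adjusted p = 0.781 over all probe sets).

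Bnip3 encodes a mitochondrial protein that marks mitochondria for removal in hypoxic cells. It read 5.39, 5.45 and 5.37 in the pools and 5.40 to 5.66 in threat animals, with a median of 5.48. Of the animals, 4 lay above every pool and 2 within their range, and the difference of 0.093 (SE 0.060, adjusted p = 0.234) did not pass. P4ha1 encodes the catalytic subunit of the collagen prolyl hydroxylase. It read 5.54, 5.65 and 5.45 in the pools and 5.37 to 5.58 in threat animals, with a median of 5.43, and differed by -0.105 (SE 0.060, adjusted p = 0.178). Of the animals, 4 lay below every pool, but the groups overlapped. Its other probe set differed by -0.16 (adjusted p = 0.163 over all probe sets).

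Ddit4 encodes a brake on the growth kinase complex mTORC1 that hypoxia, glucocorticoids and energy stress induce. It was the most variable of the 10 genes in both groups. Control pool 1-2 read 6.64, pool 3-4 read 6.01 and pool 5-6 read 6.14. Threat animal 1 read 5.67, below every pool, while the other threat animals read from 6.87 to 7.27, above every pool. The difference over all animals was 0.55 (SE 0.28, adjusted p = 0.138) with an SD of 0.34 among pools and 0.58 among animals, and it did not pass. Without threat animal 1 it was 0.78 and passed (adjusted p = 5.6e-04), so this single array decides the call.

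**Figure D2:**
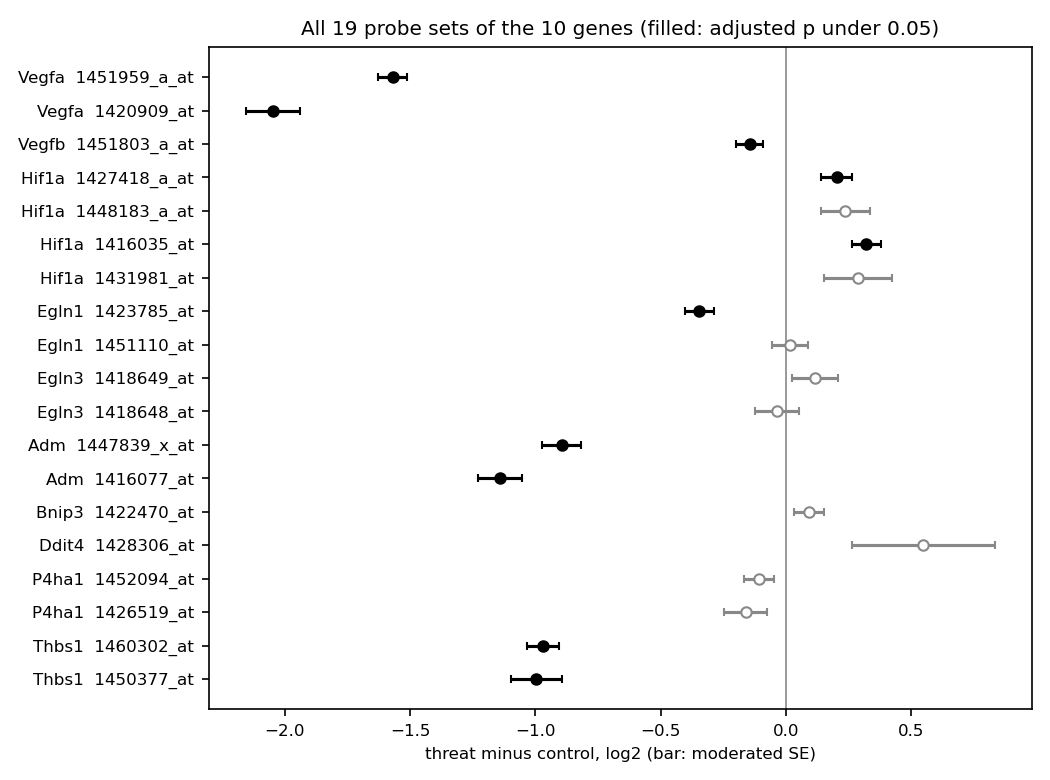
Difference between threat and control on the log2 scale for all 19 probe sets of the 10 genes, with limma's moderated SE as bars; filled points passed an adjusted p of 0.05, over all genes for a gene's brightest probe set and over all probe sets for the others. Both probe sets of Vegfa, of Adm and of Thbs1 lie below 0, all 4 of Hif1a above it, and the 2 of Egln1 do not match.

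Whether relatives changed by unequal amounts was tested within arrays, on the log2 difference of 2 genes, with an exact permutation test over all 84 ways to divide the 9 arrays as 6 and 3 (two-sided, smallest possible p = 0.0119), adjusted over the 4 pairs of which both genes passed the filter. Vegfa minus Vegfb was 1.97 ± 0.092 in pools (SD, n = 3) and 0.54 ± 0.087 in threat animals (SD, n = 6). The difference changed by -1.425 (exact permutation p = 0.0119, adjusted 0.0238), with no overlap between groups, so the fall of Vegfa exceeded that of Vegfb. Egln1 minus Egln3 fell by 0.46, from 1.77 ± 0.11 to 1.31 ± 0.16 (SD, n = 3 and 6, exact permutation p = 0.0119, adjusted 0.0238). The hydroxylase genes thus changed unequally in their brightest probe sets. With the mean of all probe sets, Egln1 minus Egln3 fell by 0.205 (exact permutation adjusted p = 0.0476). The other probe set of Egln1 differed by only 0.017 and that of Egln3 by -0.036. Egln3 was also dim, with a mean of 3.81 over all arrays. Hif1a minus Epas1, which encodes the other main alpha subunit, changed by 0.083 (exact permutation p = 0.452, adjusted 0.452), but by 0.61 with the mean of all probe sets (exact permutation adjusted p = 0.0238). The difference of Ddit4 and its relative Ddit4l changed by 0.37 (exact permutation p = 0.393, adjusted 0.452), where threat animal 1 again stood apart. Epas1 itself differed by 0.12 (SE 0.067, adjusted p = 0.167) in its brightest probe set and by -0.35 (adjusted p = 0.00166) as the mean of its probe sets, which turns its direction.

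**Figure D3:**
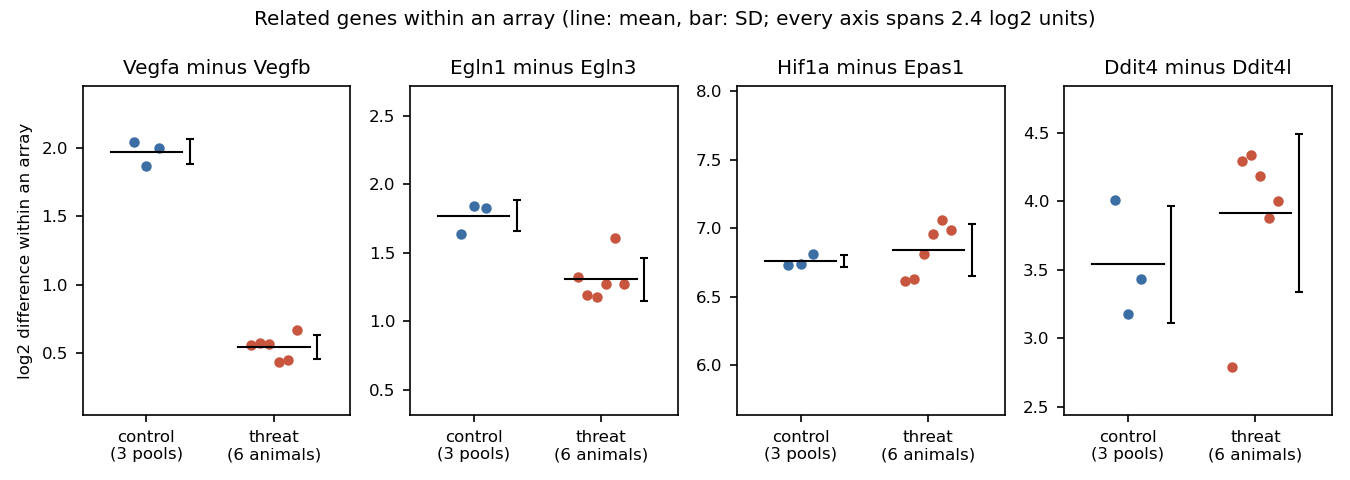
Log2 difference of 2 related genes within each array, for 3 control pools (blue) and 6 threat animals (red), with the mean as a line and the SD as a bar; the axes have the same length. The groups lie apart in the Vegfa and Vegfb pair and in the Egln1 and Egln3 pair, and overlap in the other pairs.

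The other genes of the pathway, listed by role, did not move one way. Of 82 tested, 23 rose and 21 fell (28.05% and 25.61%, beside 23.8% and 22.0% of all genes), with a median difference of 0.036. The machinery of the pathway had 16 genes tested: 3 rose, 2 fell, and the median was -0.029. Vhl, which recognises the hydroxylated alpha subunit, fell by 0.58 (SE 0.063, adjusted p = 8.5e-06), and the coactivator Crebbp fell by 0.47 (SE 0.069, adjusted p = 1.2e-04; it fell by 0.27 as the mean of its probe sets). Siah2, a ubiquitin ligase of the hydroxylases, rose by 0.27 (SE 0.083, adjusted p = 0.0184), a call that was lost without control pool 5-6 (0.15, adjusted p = 0.107). Eloc, the brightest of these genes and a component of the Vhl complex, differed by -0.043 (adjusted p = 0.535).

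Known targets of the factor outside glycolysis were split. Of 26 tested, 6 rose and 8 fell, with a median of 0.064, and 6 more were too dim to test. The largest changes were falls: the transferrin receptor Tfrc fell by 1.23 (SE 0.071, adjusted p = 3.1e-08; it fell by 0.80 as the mean of its probe sets), the chemokine receptor Cxcr4 fell by 1.14 (SE 0.054, adjusted p = 6.5e-09) and the nuclear receptor Rora fell by 0.86 (SE 0.086, adjusted p = 4.0e-06; it fell by 0.48 as the mean of its probe sets). Hmox1, the brightest of these targets and a heme-degrading enzyme, fell by 0.20 (SE 0.070, adjusted p = 0.0320), a call lost without control pool 3-4 (adjusted p = 0.0774), control pool 5-6 (0.127), threat animal 2 (0.0553) or threat animal 3 (0.0513).

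Glycolytic targets leaned the other way from Vegfa. Of 16 tested, 9 rose and 3 fell, beside 23.8% of all genes higher and 22.0% lower, with a median of 0.17. Gpi1, Gapdh and Eno1 were listed too, but no probe set here names them singly. The lactate exporter Slc16a3 rose by 0.80 (SE 0.059, adjusted p = 2.8e-07), lactate dehydrogenase Ldha by 0.45 (SE 0.058, adjusted p = 3.8e-05) and the pyruvate kinase Pkm, the brightest of the list, by 0.27 (SE 0.050, adjusted p = 7.0e-04). The regulatory enzyme Pfkfb3 fell by 0.51 (SE 0.061, adjusted p = 1.7e-05).

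The partners of the secreted factors changed in both directions. Among other ligands and receptors of the Vegf family, 6 were tested; 1 rose, 1 fell, the median was 0.046, and Vegfc and Vegfd were too dim to test. The coreceptor Nrp2, the brightest of them, rose by 0.78 (SE 0.091, adjusted p = 1.5e-05), and the receptor Flt1 fell by 0.14 (SE 0.055, adjusted p = 0.0494), a call that most alternatives lost, although the mean of its probe sets fell by 0.33 (adjusted p = 6.6e-04). In the adrenomedullin axis, 1 of 5 rose and 1 fell, with a median of 0.048. The receptor gene Calcrl rose by 1.08 (SE 0.092, adjusted p = 9.9e-07). Ramp3, a partner that makes that receptor respond to adrenomedullin, fell by 1.43 (SE 0.049, adjusted p = 5.7e-10). Its relatives Ramp1 and Ramp2 differed by -0.0152 (adjusted p = 0.863) and 0.0475 (adjusted p = 0.6935), and Ramp2 was dim, with a mean of 2.99 over all arrays. Of the thrombospondin receptors, Cd36, also a fatty acid carrier, fell by 1.68 (SE 0.096, adjusted p = 2.9e-08). Cd47 rose by 0.15 (SE 0.049, adjusted p = 0.0239) in its brightest probe set. It fell by 0.33 (adjusted p = 0.00519) when probe sets without the suffix _a_at, _s_at or _x_at were given preference. Its direction is thus not settled, and its call was also lost without control pool 5-6 (0.10, adjusted p = 0.116). Thbs2, Thbs3 and Thbs4 were too dim to test.

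Around Ddit4, 10 genes of mTORC1 and its inhibitors were tested, of which 5 fell and 2 rose, with a median of -0.17. Of the 7 that encode inhibitors (Ddit4l, Tsc1, Tsc2, Sesn1, Sesn2, Sesn3 and Deptor), 3 fell and 2 rose, and of Mtor, its partner Rptor and its activator Rheb, 2 fell. The sestrin genes Sesn3 and Sesn1, stress-induced inhibitors of mTORC1, were lower: Sesn3 fell by 1.27 (SE 0.065, adjusted p = 1.2e-08) and Sesn1 fell by 1.19 (SE 0.082, adjusted p = 1.5e-07). The kinase gene Mtor fell by 0.32 (SE 0.047, adjusted p = 1.2e-04; it fell by 0.12 as the mean of its probe sets), and its activator Rheb, the brightest gene here, fell by 0.24 (SE 0.048, adjusted p = 0.00121). Ddit4l rose by 0.18 (SE 0.059, adjusted p = 0.0281) at a level near the filter, and lost its call without control pool 1-2 (adjusted p = 0.138), control pool 5-6 (0.0798) or threat animal 3 (0.0514). Of the prolyl hydroxylase subunits beside P4ha1, P4ha2, P4ha3 and P4htm were too dim to test, and P4hb differed by 0.11 (SE 0.047, adjusted p = 0.0827), a difference that passed without control pool 3-4 (0.16, adjusted p = 0.0203).

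**Figure D4:**
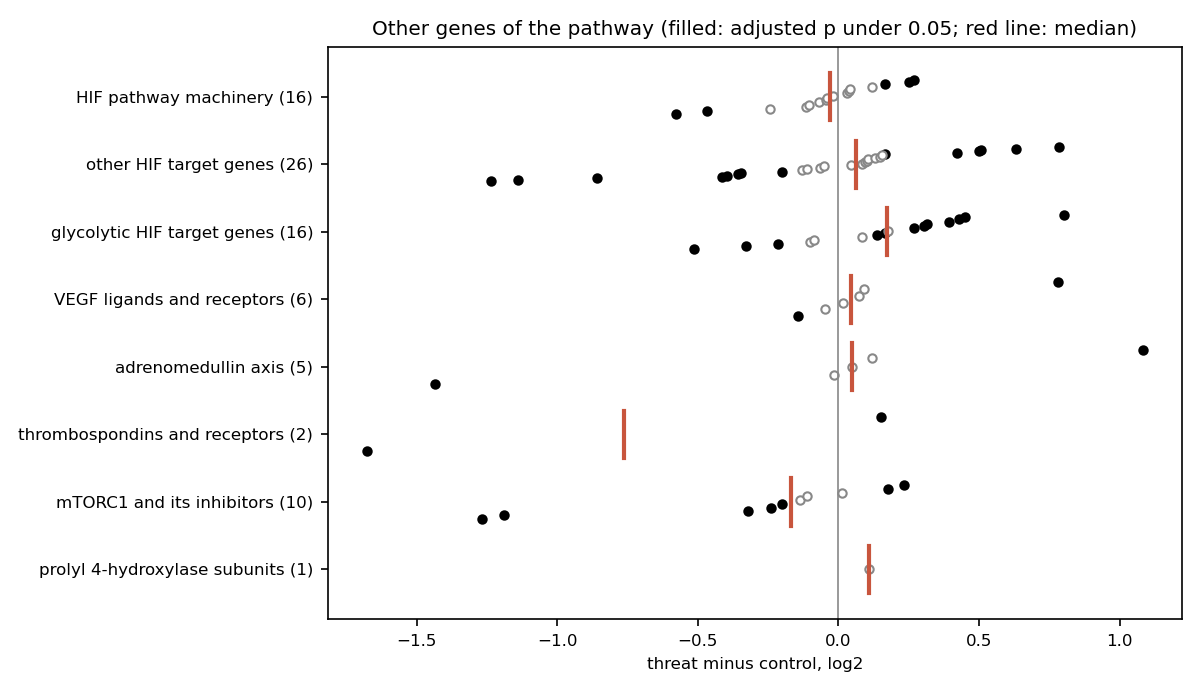
Difference between threat and control on the log2 scale for the other genes of the pathway, 1 point per gene and 1 row per list, with the number tested in brackets, filled points for an adjusted p under 0.05 and a red line at the median; height within a row only spreads the points. Medians lie near 0 except in lists of few genes, glycolytic targets (0.17) and the list of mTORC1 with its inhibitors (-0.17).

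The genes whose pattern was most like that of Vegfa over the 9 arrays were found by the root mean square distance between log2 values, each centred on the gene's own mean. The nearest were Fam102a (distance 0.074), the nucleosome-binding gene Hmgn1 (0.076), Tmcc3 (0.080), the fatty acid desaturase Scd2 (0.083) and Gramd3 (0.083). Their differences lay between -1.62 and -1.46 in the brightest probe sets, but Tmcc3 and Scd2 differed by -0.66 and -0.95 as the mean of their probe sets. Of the other hypoxia-responsive genes Thbs1 was the nearest to Vegfa (0.31), then Adm (0.33). The nearest genes to Hif1a were Dedd, Acot9, Atp1b3, Otub1 and Ppp4r2, at distances from 0.0385 to 0.0426, and those nearest to Egln3 were Bcs1l, Cluap1, Rfc2, S100a5 and Ankrd13a, at 0.059 to 0.069.

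Markers of other cells moved with the falls of Vegfa, Thbs1 and Adm. Myeloid markers were measured in both groups: Lyz2, the lysozyme gene of myeloid cells, read 12.74 ± 0.047 in pools (SD, n = 3) and 12.86 ± 0.031 in animals (SD, n = 6), and Itgam 7.93 ± 0.025 and 8.50 ± 0.070. B cell genes were measured too, with Cd79a at 8.88 ± 0.075 in pools and 6.57 ± 0.19 in animals, and these levels do not give the purity. Of 9 myeloid marker genes 8 rose, Itgam by 0.57 (SE 0.051, adjusted p = 1.7e-06), Adgre1 by 0.69 (SE 0.055, adjusted p = 5.8e-07) and Fcgr1 by 0.83 (SE 0.088, adjusted p = 6.7e-06; 0.55 as the mean of its probe sets). Lyz2 rose by 0.12 (adjusted p = 0.0480), a call that most alternatives lost. Granulocyte genes rose in 13 of 14, led by Prtn3 (3.48, SE 0.15, adjusted p = 3.2e-09) and Mpo (2.95, SE 0.20, adjusted p = 1.3e-07), with S100a9 the brightest (0.47, SE 0.043, adjusted p = 1.8e-06), and their mean per array went from between 8.46 and 8.62 in pools to between 9.92 and 10.40 in animals. B cell genes fell in 10 of 11 (means 6.74 to 6.97 in pools, 4.70 to 5.09 in animals), natural killer cell genes in 9 of 10 (5.56 to 5.75, then 3.98 to 4.18) and dendritic cell genes in 10 of 11 (7.58 to 7.66, then 6.59 to 6.65). Resident macrophage genes fell in 7 of 13 and rose in 1 (6.07 to 6.20, then 5.60 to 5.70), and T cell genes fell in 4 of 7 (4.62 to 4.71, then 4.27 to 4.43). Beside these counts stand 23.8% of all genes called higher and 22.0% called lower. The part of these shifts in cell markers in the falls of Vegfa, Thbs1 and Adm was not tested.

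Platelets store thrombospondin. Of 11 platelet and megakaryocyte genes, 5 rose, 1 (Tubb1) fell and 5 did not pass, beside 23.8% of all genes higher and 22.0% lower, and their mean per array was 4.38 to 4.46 in pools and 4.58 to 4.68 in animals. Ppbp, a platelet chemokine and the brightest of them, rose by 0.58 (SE 0.070, adjusted p = 2.1e-05). Of 4 tested erythroid genes 1 rose, with 5 below the filter (means 3.50 to 3.70 in pools and 3.57 to 3.75 in animals), and of 7 endothelial and stromal genes 2 rose and 2 fell, with 4 below it (3.87 to 4.00, then 3.78 to 3.90). Pecam1, an adhesion molecule of endothelial cells, platelets and leukocytes, fell by 0.75 (SE 0.094, adjusted p = 3.2e-05), and Stab2, a scavenger receptor of sinus endothelium, fell by 0.59 (SE 0.11, adjusted p = 6.1e-04), while the endothelial genes Cdh5 and Kdr differed by -0.0022 (adjusted p = 0.987) and 0.075 (adjusted p = 0.557). Genes induced by cAMP, a signal that also raises Vegfa and Thbs1 in macrophages, fell in 13 of 14 (means 8.01 to 8.07 in pools, 6.88 to 7.001 in animals), where Nr4a2 fell by 2.42 (SE 0.094, adjusted p = 1.3e-09; -1.39 as the mean of its probe sets) and Crem fell by 2.41 (SE 0.065, adjusted p = 7.8e-11; -1.14 as the mean of its probe sets). Immediate early and cell handling genes fell in 14 of 19 (9.29 to 9.30, then 8.60 to 8.69), and 5 did not pass. Here Hspa1a fell by 2.14 (SE 0.097, adjusted p = 4.4e-09) and Hspa1b fell by 2.12 (SE 0.073, adjusted p = 5.7e-10). This list shares Fos, Fosb, Atf3 and Dusp1 with the cAMP list. The gap between the 3′ and 5′ probe sets of beta-actin, which follows RNA integrity, was 0.47 ± 0.063 in pools and 0.36 ± 0.034 in animals (SD, n = 3 and 6, exact permutation p = 0.0238), and that of Gapdh was -0.035 ± 0.052 and -0.071 ± 0.088 (SD, n = 3 and 6, exact permutation p = 0.512). The part of these markers in the falls was not tested either.

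**Figure D5:**
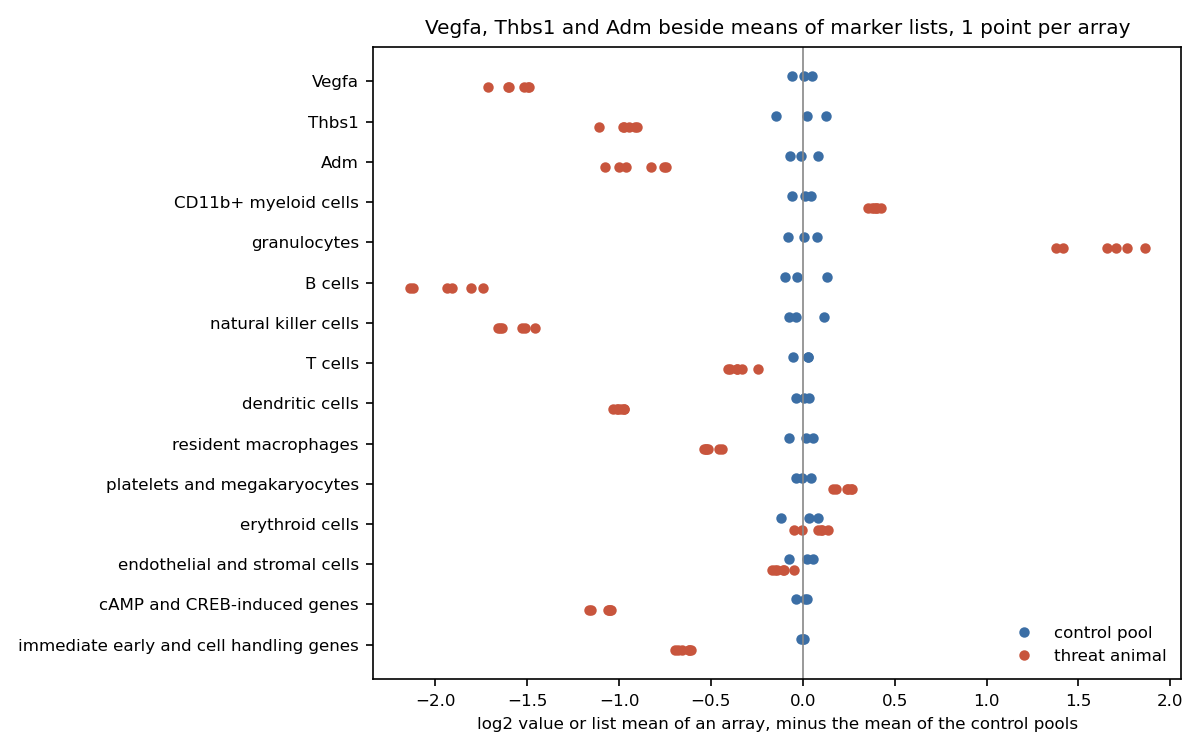
Log2 value of Vegfa, Thbs1 and Adm and the mean log2 value of each marker list in every array, after subtracting the mean of the control pools, for control pools (blue) and threat animals (red). Lists of B, natural killer, T and dendritic cells and of resident macrophages lie below 0 in all 6 threat animals, like Vegfa. So do those of endothelial and stromal cells, of cAMP-induced genes and of immediate early and cell handling genes. Those of granulocytes, myeloid cells and platelets lie above 0, and erythroid values lie on both sides.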

How the data were processed

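The authors deposited 1 log2 expression value per probe set and array for 9 Affymetrix mouse arrays, for which the submitters' processing notes name RMA. The version and settings used are not named in these sources. The log base was taken from the values (0.607 to 13.567). RMA makes array distributions alike, so a change in total RNA per cell would not be seen, and it gives no detection call. The number of arrays limits the precision.

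Probe sets were named through the platform annotation, with symbols updated by Entrez number from a RefSeq table (GRCm38.p6): 34945 of 45037 name 1 gene, 932 several and 9160 none here, and 34741 matched. The brightest probe set stood for a gene, and genes with a mean at or above the 40th percentile (2.66) were tested. Threat minus control was fitted with limma 3.58.1 in R 4.3.3 (lmFit and eBayes, two-sided) and adjusted by Benjamini-Hochberg over 13078 genes, or 22757 probe sets for additional probe sets. The SE is limma's moderated one.

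Lists got no set test. Genes named in the text were drawn from all members, up to 3 called genes per pathway list (2 per marker list) by size of difference, each list's brightest gene, paired relatives and the 5 nearest to Vegfa, Hif1a and Egln3. Alternatives changed the filter, the choice or averaging of probe sets, the scaling, the prior, the array weights, the weight of pools and the number block, and left out each array in turn. Threat animals and control pools, not the cells, are the replicates, and limma gave both groups a shared spread. The labels do not say whether the animals were kept or processed apart. The members and lists were chosen with earlier results of these data known. On simulated data with these spreads and 13078 genes, 50 genes were changed at each size. Of those changed by 0.25, 32% were recovered, 90% at 0.5 and 100% at 1 and at 2. Far fewer genes were changed there than the 45.8% called here, so these shares do not give the power of this comparison. Same-numbered pools and animals correlated in their deviations between -0.157 and 0.21, and the others between -0.194 and 0.18. The numbers were not treated as pairs. With so few arrays in a group, this check cannot exclude that they are.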

Additional observations from a re-analysis of the deposited data

Results flagged for a closer look

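Single threat animals stood apart in 4 of 23 sets of 6 threat values that were examined for the 10 genes and their pairs. In Ddit4, threat animal 1 was the lowest at 5.667, with the next animal at 6.867 and a range of 1.604 over all 6. The within-array difference of Ddit4 and Ddit4l was lowest in the same animal at 2.789, with the next at 3.874. In Egln1, threat animal 1 was the highest at 5.32, with the next at 5.171. The within-array difference of Egln1 and Egln3 was highest in threat animal 5 at 1.607, with the next at 1.32. Pair differences share values with the gene sets, so the 4 sets are not independent of one another. Chance marks about 5% of such sets, and 9.62% of all 13078 genes had a threat animal that stood apart by this measure. Threat animal 1 was that animal in 234 genes, between the 163 of threat animal 4 and the 260 of threat animal 6.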

How the results depend on the processing

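The falls of Vegfa, Adm, Thbs1 and Egln1 passed under all 22 alternatives. Differences ran from -2.05 to -1.54 for Vegfa, -1.14 to -0.85 for Adm, -1.04 to -0.91 for Thbs1 and -0.38 to -0.16 for Egln1. For Egln1, no alternative let the dimmer probe set stand for the gene alone. That probe set differed by 0.017 (adjusted p = 0.872 over all probe sets), so the fall of Egln1 rests on its brighter probe set. Of the 10 genes, 4 or 5 were called lower throughout, and 1 was called higher, except without single arrays, where it was from 0 to 2. With each probe set on its own, 4735 probe sets were higher and 5011 lower (42.8% in all), more because more features were tested. A replicate block on the animal numbers called 1 gene of the 10 higher and 5 lower, with 3085 and 2860 of all genes, and changed no call of the 10, although that of Flt1 (adjusted p = 0.0674) and of Lyz2 (0.0696) was lost. Without any 1 control pool, the Vegfa and Vegfb pair and the Egln1 and Egln3 pair lost their calls (exact permutation adjusted p = 0.0714). With fewer arrays to divide, both pairs stood at the smallest p possible, so this loss does not show dependence on a pool. The change of the Vegfa and Vegfb pair stayed between -1.48 and -1.39, that of the Egln1 and Egln3 pair between -0.53 and -0.43. Signs turned for Cd47 (-0.33 with preference by suffix) and Epas1 (-0.35 with the mean of probe sets). They also turned, all uncalled, for Nfkbia (0.0153 with quantile normalization) and for genes without single arrays. These were Spic (-0.102 to 0.0155) and Kdr (-0.0043 to 0.162) without control pool 5-6, and Cluap1 (-0.0092 to 0.0889) and S100a5 (-0.0183 to 0.164) without control pool 3-4. The cause was not tested.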

Other observations

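The 2 genes nearest to Ddit4 over the 9 arrays, looked for after its values were seen, were Mocs1, which makes the molybdenum cofactor (distance 0.28), and Csf2ra, the receptor subunit for the growth factor GM-CSF (0.33). Mocs1 read 5.16, 5.35 and 5.28 in the pools and 5.28 in threat animal 1, and 5.94 to 6.47 in the other threat animals. It rose by 0.82 (SE 0.20, adjusted p = 0.00508). Csf2ra read 9.09, 9.11 and 9.60 in the pools, 8.86 in threat animal 1 and 9.39 to 9.82 in the other animals. It differed by 0.28 (SE 0.19, adjusted p = 0.269), by 0.41 without threat animal 1 (adjusted p = 0.0194) and by 0.39 over all animals as the mean of its probe sets (adjusted p = 0.0431). In Ddit4 and Csf2ra threat animal 1 was lower than every pool, and in Mocs1 it was within their range.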
